A study of Mus musculus with 15 samples.

Results

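The nuclear-encoded subunits of the respiratory chain were followed in fully grown mouse oocytes that lack Padi6 or Tle6. Members were chosen by gene symbol alone, as protein-coding genes named for subunits of complexes I to V: the Nduf genes with the letters a, b, c, s or v and a number, Sdha to Sdhd, 8 Uqcr genes, Cyc1, 10 Cox genes and every Atp5 gene. This gave 77 gene identifiers among the 53700 genes counted, with 36 in complex I, 4 in complex II, 9 in complex III, 10 in complex IV and 18 in complex V. They carry 76 symbols, since Atp5o has 2 identifiers. The second Atp5o identifier, whose annotated exons lie wholly inside those of other genes on the same strand, held 0 counts in every library. The other 76 members had at least 101 counts in each of the 12 biological replicates and passed the filter on low counts in every comparison.

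RNA was taken from oocytes at the germinal vesicle (GV) stage, before meiosis resumes, with 15 oocytes in each library. In the line mutated in Padi6, on the FVB/N background, 3 heterozygous (het) and 3 homozygous mutant (KO) biological replicates were sequenced. In the line mutated in Tle6, on the C57BL/6J background, there were 2 het and 4 KO biological replicates. Oocytes form their cytoplasmic lattices with the help of both genes, and the comparisons ask whether subunit transcripts differ without them. Tle6 het replicates 1 and 2 and KO replicate 4 were each sequenced from a pair of technical libraries, named A and B, and the counts of a pair were summed. The controls are heterozygotes, although names in brackets in their titles say WT. Neither the ages of the mice nor the animals behind each replicate are named, so p-values cover only the spread among these samples, which may be technical.

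Complex I takes electrons from NADH and complex II takes them from succinate, as a step of the citric acid cycle. Complex III passes them from ubiquinol to cytochrome c and complex IV hands them to oxygen, while complex V (ATP synthase) uses the proton gradient to make ATP. All of complex II is encoded in the nucleus, whereas the others join nuclear subunits with a few made inside the mitochondrion. Growing oocytes depend on mitochondrial oxidation of pyruvate for their ATP and store mRNAs for later use, so transcript levels need not follow protein levels.

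Libraries held 30100177 to 74947533 counts in genes, of which the members took 0.363 to 0.61%. Padi6 was at 1594 to 1746 CPM (counts scaled to a common library size, after adjustment by the trimmed mean of M-values, TMM) in Padi6 het and at 18.75 to 24.82 CPM in Padi6 KO. Tle6 was at 429.4 and 457.1 CPM in Tle6 het and at 61.07 to 97.05 CPM in Tle6 KO, so each KO group was low in its own gene. The 12 oocyte markers summed to 22070 to 28250 CPM. Granulosa and cumulus markers summed to 409.1 to 740.1 CPM, with 14 of 20 over 1 CPM and most of the sum from Serpine2 at up to 623.1 CPM. Theca and stroma markers summed to 1.947 to 5.842 CPM with Insl3 at 0 counts, and blood and immune markers to 3.753 to 17.63 CPM with Hbb-bs at 0 counts. In such bulk samples, fewer cells of a type and less RNA per cell cannot be told apart.

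The technical libraries of Tle6 het replicate 2 differed from each other in these genes. Library B gave 0.363% of its gene counts to the members and library A 0.589%, against 0.456 and 0.466% in the libraries of het replicate 1 and 0.456 to 0.61% over all 13 others. Of the 76 members 66 were higher in A than in B, 33 of them by more than 2-fold, and the median log2 ratio of A to B was 0.86 (range -1.27 to 3.00). Over all 20276 genes tested in the Tle6 line, 18.1% were over 2-fold higher in A and 15.5% over 2-fold higher in B, with a median of 0.08. The delta subunit gene Atp5d, for example, was at 4.085 CPM in A and 0.4217 CPM in B, whereas Ndufb11 was at 226.5 CPM in A and 547.9 CPM in B. For the paired libraries of Tle6 het replicate 1 and KO replicate 4 the medians were 0.05 and 0.06, and no member differed by 2-fold. The median log2 ratio of het replicate 1 to library A was -0.55 over the members and that to library B 0.29, so neither library matched the other het replicate in these genes. Library B has more reads and weighs more in the sum, so counts of calls and the members' medians are also given without it.

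**Figure D1:**
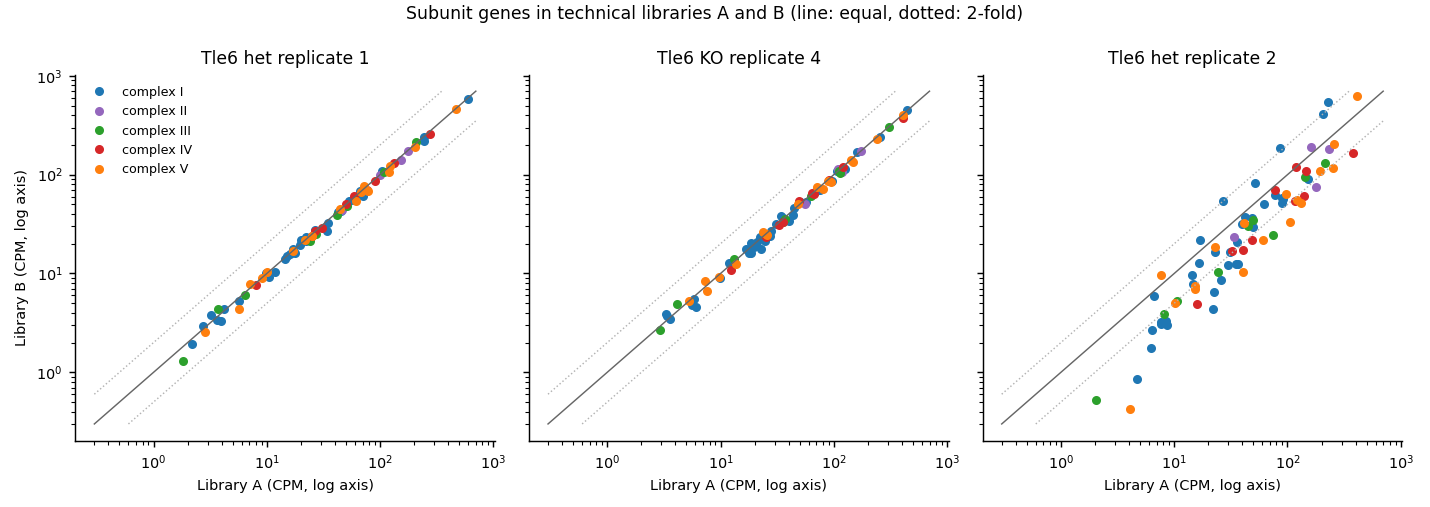
Level of each measured subunit gene (CPM, log axes) in library A (x axis) and library B (y axis) of the 3 biological replicates that have both, coloured by complex; the solid line marks equal levels and the dotted lines 2-fold. The genes lie along the line for Tle6 het replicate 1 and KO replicate 4, while 33 of 76 lie below the lower dotted line for Tle6 het replicate 2.

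Subunit transcripts were abundant in the GV oocyte but far from equal among themselves. Their median level was 23.44 RPKM (CPM per kilobase of annotated exon, averaged over the 12 replicates), against 0.6175 RPKM over the 20263 protein-coding genes with a count. The rank order of the 76 levels was similar in all groups, with Spearman's rho of 0.995 between Padi6 het and KO, 0.98 between Tle6 het and KO, and 0.946 to 0.953 across the lines. These correlations run over genes that share libraries and lengths and are given as a description.

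In complex I the levels ran from 0.691 RPKM for Ndufb2 to 505.3 RPKM for Ndufb11, with a median of 17.23. Both are accessory subunits of the membrane arm. Ndufb11, the highest of all members by this length, was at 332.2 ± 44.3 RPKM (SD, n = 3) in Padi6 het, 389.2 ± 54.3 (n = 3) in Padi6 KO, 569.3 (n = 2) in Tle6 het and 690.1 ± 203.2 (n = 4) in Tle6 KO. Next came Ndufa8, Ndufa2 and Ndufa4 at 191.1, 164.5 and 128.1 RPKM, all accessory subunits by name, although the Ndufa4 protein is now known as a subunit of complex IV. Core subunits, those shared with the bacterial enzyme, lay on both sides of the complex median. Examples are Ndufs8 at 29.79, Ndufv1 at 22.21, Ndufs3 at 16.33, Ndufv2 at 15.52, Ndufs1 at 6.714 and Ndufs7 at 2.993 RPKM. The 4 highest genes of the complex included no core subunit, but accessory genes were also among the lowest, such as Ndufb2 and Ndufc1 (2.573 RPKM).

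In complex II the small membrane anchor Sdhd led at 116.2 RPKM, followed by the other anchor Sdhc at 40.02, the flavoprotein Sdha at 37.7 and the iron-sulfur subunit Sdhb at 14.82. In complex III the hinge protein gene Uqcrh was highest at 262.3 RPKM, followed by the small subunit Uqcr10 at 117.7. The core protein gene Uqcrc1 was lowest at 0.829 RPKM, while the partner core protein gene Uqcrc2 was at 47.99 and cytochrome c1 (Cyc1) at 5.626 RPKM. In complex IV, whose catalytic subunits are made in the mitochondrion, levels were more alike, from 17.07 RPKM for Cox7c to 233.6 for Cox4i1, the largest of the nuclear subunits. In complex V the alpha subunit Atp5a1 led at 127.1 RPKM, with the shaft subunit gamma (Atp5c1) at 69.91, the catalytic beta subunit (Atp5b) at 55.66 and delta (Atp5d) at 2.712. The 3 genes for the ring-forming subunit c, which encode the same mature protein, were at 17.9 (Atp5g1), 11.25 (Atp5g3) and 6.139 RPKM (Atp5g2).

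These orders depend in part on the length used. With the longest coding transcript in place of all annotated exons, the levels kept much of their order (rho = 0.93 over 76 genes), and Ndufb11, Ndufb2, Uqcrh, Uqcrc1 and Cox4i1 stayed at the ends of their complexes. Atp5l, however, moved from 1.51 to 17.88 RPKM, because 6443 bases of exon stand against 544 in that transcript, and Atp5e replaced Atp5a1 as the highest of complex V at 191.2 RPKM. Named pseudogenes took few reads that were placed uniquely: Uqcrh-ps2 held 4621 counts over all libraries against 250354 for Uqcrh. Reads aligned more than once (12.09 to 14.51% of reads) were left out. Any that a member shares with a pseudogene are thus missing from these counts. Of the 77 identifiers 28 share exon bases with another annotated gene, up to 47.9% for the measured Atp5o, 39% for Ndufb6 and 30% for Ndufa13. The levels of those genes are uncertain, as no source used here gives the strand setting of the counting.

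**Figure D2:**
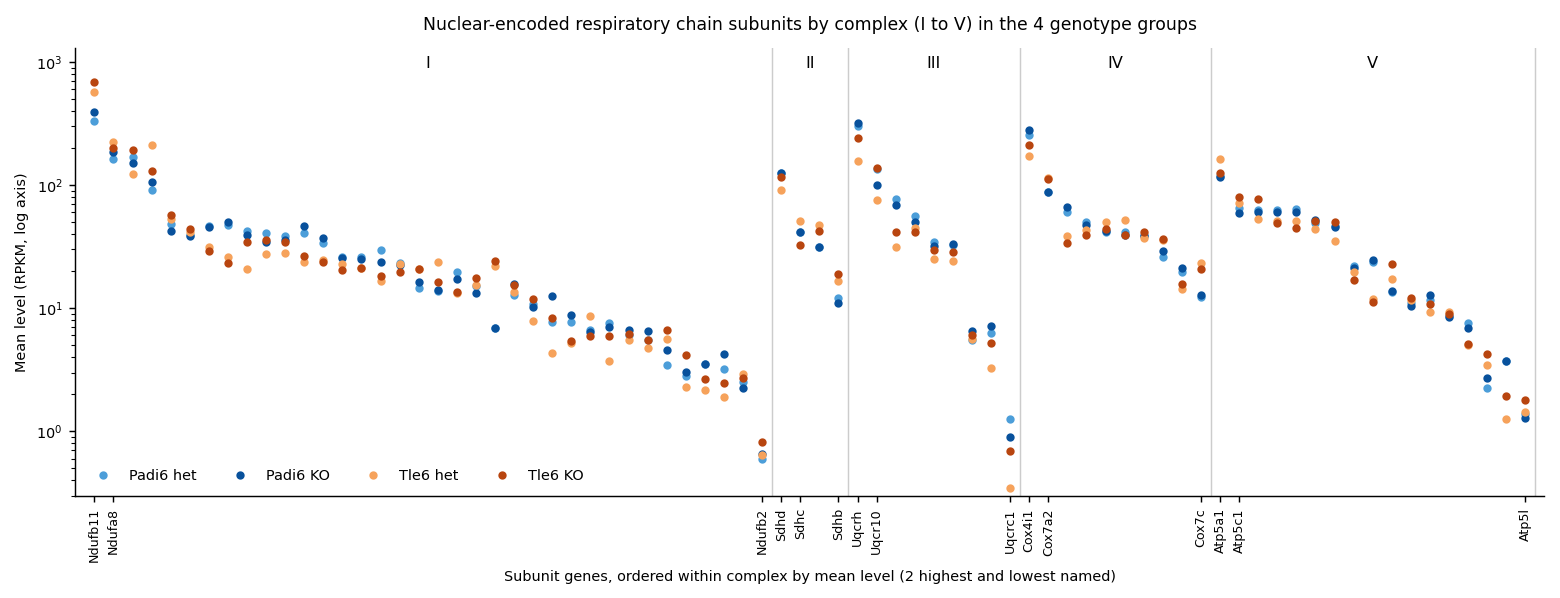
Mean level (RPKM, log axis) of each of the 76 measured subunit genes in the 4 genotype groups, ordered within complexes I to V by the mean over all 12 biological replicates, with the 2 highest and the lowest of each complex named. Levels span from 0.691 RPKM for Ndufb2 to 505.3 RPKM for Ndufb11, and the 4 groups lie close together for most genes.

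The summed level of a complex differed most between groups in complexes I and III. Padi6 het replicates had complex III sums of 646.8, 583.1 and 730.5 RPKM and Padi6 KO replicates 690.9, 606.3 and 554.5 RPKM. Tle6 het replicates were at 397.4 and 334.6 RPKM, below every other replicate with libraries A and B added, and Tle6 KO replicates at 434.2, 561.0, 524.8 and 614.9 RPKM. Without library B the Tle6 het replicates were at 403.5 and 442.1 RPKM, against 441.1 to 624.4 in Tle6 KO, so the groups of this line then overlapped. Both Tle6 het replicates stayed below the Padi6 replicates (563.0 to 742.2 RPKM), while the Tle6 KO replicates overlapped with them. With both libraries, the low sum in Tle6 het remained with the longest transcript as length (691.6 and 565.1 against 724.2 to 1236 RPKM elsewhere) and without Uqcrh (221.0 and 199.3 against 239.7 to 448.0 RPKM). Complex I sums were 1322 to 1455 RPKM in Padi6 het, 1409 to 1497 in Padi6 KO, 1504 and 1799 in Tle6 het, and 1652 to 1924 in Tle6 KO, so the lines did not overlap with both libraries added. Without library B Tle6 het replicate 2 was at 1325 RPKM, below all Padi6 replicates (1345 to 1520), so the separation rested on library B. Ndufb11 alone supplied much of that sum. With both libraries, complex II lay between 170.3 and 250.6 RPKM, and complex V between 496.6 and 642.3, with overlap of all groups. Without library B Tle6 het replicate 2 was at 271.0 RPKM in complex II and 731.6 RPKM in complex V, above every other replicate. In complex IV, between 546.8 and 711.3 RPKM, the Padi6 KO replicates (618.3 to 711.3) lay above both Tle6 het replicates (555.1 and 608.3), which without library B were at 563.7 and 822.1, and the other groups overlapped. No test was run on these sums, since the members were chosen with earlier results of these data known.

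**Figure D3:**
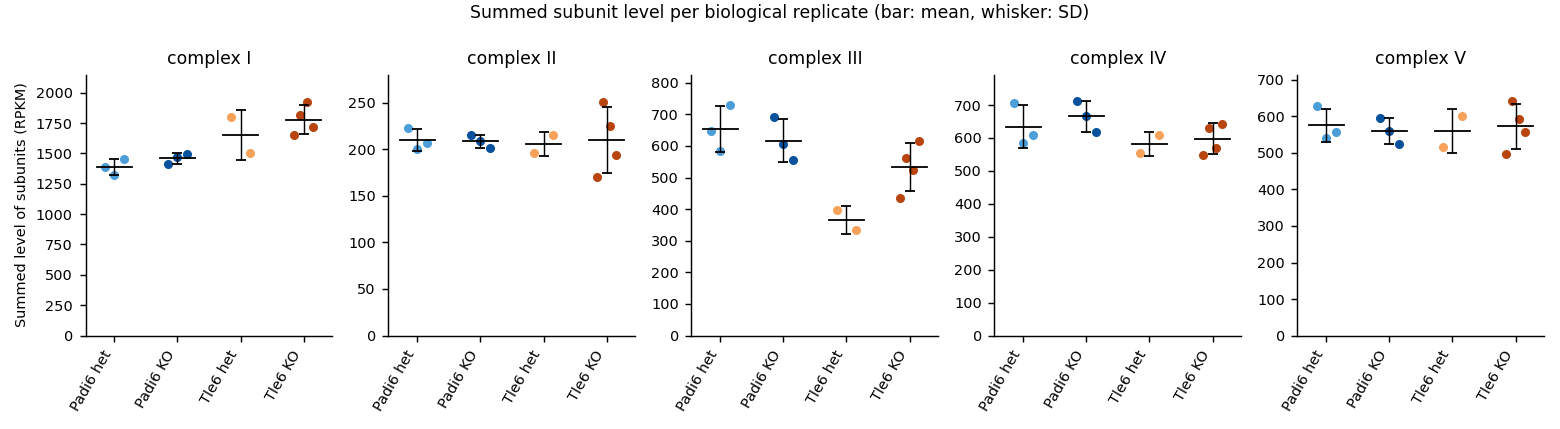
Summed level (RPKM) of the subunit genes of each complex in every biological replicate, with libraries A and B added; points are replicates, long bars group means and whiskers the SD. Both Tle6 het points of complex III, at 397.4 and 334.6 RPKM, lie below all other replicates, while all groups overlap in complexes II and V.

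Loss of Padi6 was not followed by a called difference in any subunit gene. Of 76 members 0 had an adjusted p under 0.05 in the edgeR quasi-likelihood test, against 2.41% of all 18228 genes tested (440 genes). At an unadjusted p under 0.05 there were 5 members, against 18.6% of all genes. DESeq2 called 1 member, against 7.18% of all genes, and limma-voom 0, against 2.02%. The median log2 fold change of KO over het was -0.01 over the members and -0.01 over all genes, with 35 members above 0 and 41 below. By complex the medians were -0.01 in I, 0.00 in II, -0.11 in III, 0.04 in IV and -0.04 in V.

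The precision of this line limits how large an unseen change could be. The 95% interval of the fold change lay inside 2-fold in either direction for 73 of 76 members, and inside 1.5-fold for 66. The replicates of KO and het did not overlap in 4 members that were higher and 4 that were lower, against 11.7% and 11.5% of all genes. Replicates of Ndufv1 were close together, and those of Uqcr10, Uqcrc1 and Ndufa13 far apart. Ndufv1 stood at 74.84, 77.4 and 80.64 CPM in het and at 66.52, 62.36 and 58.56 CPM in KO, while Uqcrc1 stood at 3.443, 8.187 and 4.062 CPM in het.

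Complex I held all 5 members with an unadjusted p under 0.05. Ndufa13 (also known as GRIM-19), an accessory subunit needed to assemble the complex, was at 9.838, 10.62 and 8.699 CPM in het and 20.22, 11.56 and 15.53 CPM in KO. Every KO replicate was above every het replicate, but the KO replicates themselves ranged widely, and the log2 fold change of 0.69 ± 0.20 (SE) had an adjusted p of 0.104 in edgeR. It was the member called by DESeq2, at 0.70 with an adjusted p of 0.0161. Ndufv1, the core subunit that binds NADH and the flavin, had a log2 fold change of -0.32 ± 0.10 without overlap (adjusted p = 0.116). Ndufa12, Ndufb7 and Ndufa9, accessory subunits, followed with 0.30, 0.39 and -0.25 and adjusted p-values of 0.214 to 0.253.

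The most abundant members of each complex had intervals around 0. In complex II, Sdhd was at 162.5, 150.5 and 149.1 CPM in het and 156.2, 157.9 and 144.6 CPM in KO, with a log2 fold change of -0.01 (95% interval -0.21 to 0.19). Sdhc was at 0.00 (-0.22 to 0.22), Sdha at 0.01 (-0.20 to 0.23) and Sdhb at -0.13 (-0.40 to 0.14). In complex III, Uqcrh was at 0.06 (-0.15 to 0.28), and Uqcr10 at -0.43 with a wide interval of -1.25 to 0.38, since het replicate 3 held 140.3 CPM of Uqcr10 against 58.87 and 39.09 CPM in the others. Uqcrc1 (-0.51) and Uqcrb (0.23) had the smallest p-values of complex III, with adjusted p-values of 0.432 and 0.541. In complex IV, Cox4i1 was at 0.14 (-0.11 to 0.38), Cox7a2 at 0.02 (-0.26 to 0.29) and Cox6c at 0.17 (-0.11 to 0.44). In complex V, Atp5a1 was at -0.05 (-0.26 to 0.16), Atp5c1 at -0.15 (-0.41 to 0.12) and Atp5s, a factor that couples the enzyme rather than a core subunit, at 0.27 (-0.24 to 0.78).

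Loss of Tle6 likewise gave 0 called members of 76 in edgeR, against 1.62% of all 20276 genes tested (329 genes). At an unadjusted p under 0.05 there were 11 members, against 19% of all genes, while DESeq2 called 3 members, against 8.45% of all genes, and limma-voom 0, against 1.75%. The median log2 fold change was 0.19 over the members and 0.06 over all genes, with 53 members above 0 and 23 below. Without library B of het replicate 2 that median was -0.10, with 30 above and 46 below, and 0 members were called by edgeR, against 0.605% of all genes. At an unadjusted p under 0.05 there were then 2 members, Sdhc and Uqcr10, against 13.5% of all genes. Without library A instead it was 0.30, with 65 above 0. The sign of the members' median in this line thus depended on which library of 1 het replicate was used.

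Within complexes, the median of complex III kept its sign, at 0.44 with both libraries, 0.14 without B and 0.69 without A. For complex II it was 0.06 with both and -0.11 without B. For complex IV it was -0.04 and -0.35, for complex I 0.19 and -0.07, and for complex V 0.21 and -0.13. The replicates did not overlap in 7 members that were higher and 8 that were lower in KO, against 13.4% and 15.8% of all genes. Without library B these counts were 4 and 6, against 11.5% and 11.2%. The intervals, with both libraries, were wider than in the Padi6 line: 47 of 76 lay inside 2-fold and 13 inside 1.5-fold.

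**Figure D4:**
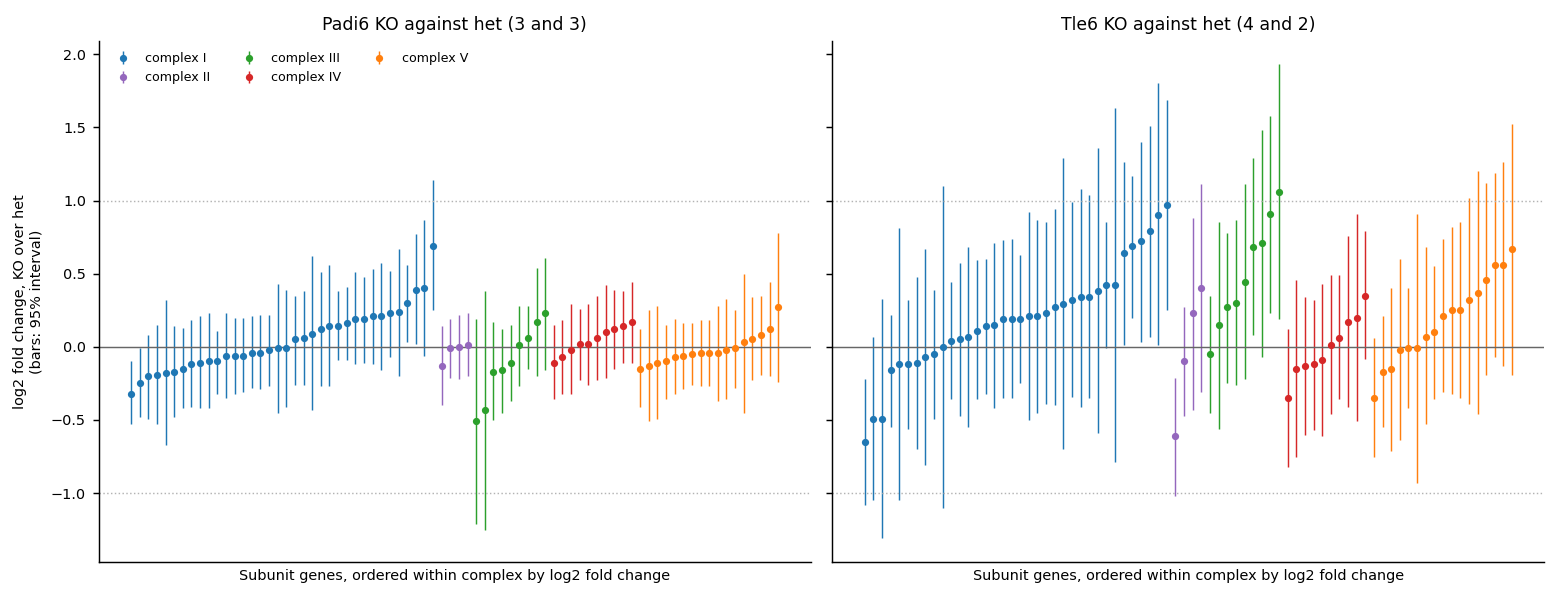
log2 fold change of KO over het (y axis) with its 95% interval for each of the 76 measured subunit genes, ordered within complex, in the Padi6 line (left, 3 KO and 3 het) and the Tle6 line (right, 4 KO and 2 het); dotted lines mark 2-fold. None had an adjusted p under 0.05, and 73 intervals on the left and 47 on the right lie inside the dotted lines.

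Sdhc and Ndufa4 had the smallest p-values in this line. Sdhc, the larger membrane anchor of complex II, was at 152.9 and 178.5 CPM in het and at 115.4, 98.89, 92.3 and 114.2 CPM in KO. The KO replicates all lay below the het replicates, at a log2 fold change of -0.61 ± 0.18 with an adjusted p of 0.121. Leaving out library B changed that value little, to -0.58, with an adjusted p of 0.243. Ndufa4 was at 254.3 and 327.7 CPM in het and at 212.5, 162.2, 178.4 and 166.9 CPM in KO, again without overlap (-0.65 ± 0.19, adjusted p = 0.122). Here library B carried much of the difference, with 412.9 CPM of Ndufa4 against 206.3 CPM in library A, and without B the value was -0.35. DESeq2 called Sdhc, Ndufa4 and Ndufa13, with adjusted p-values of 0.0395, 0.0418 and 0.0473.

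Among members with values above 0, Ndufa2, an accessory subunit of the matrix arm, was at 69.14 and 71.52 CPM in het and at 89.06, 130.1, 96.49 and 123.2 CPM in KO (0.69 ± 0.21, adjusted p = 0.141). Uqcr10 was at 51.68 and 36.86 CPM in het and at 78.74, 77.93, 54.03 and 111.4 CPM in KO (0.91 ± 0.30, adjusted p = 0.155). Both sets of replicates were free of overlap. Ndufa13 (0.97), Uqcrc1 (1.06) and Uqcrh (0.68) had adjusted p-values of 0.156, 0.188 and 0.212. Without library B these 5 values became 0.48, 0.74, 0.64, 0.63 and 0.48.

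Among the abundant members, Ndufb11 was at 0.32 (95% interval -0.34 to 0.99), Ndufa8 at -0.12 (-1.05 to 0.81), Sdhd at 0.40 (-0.31 to 1.11) and Cox7a2 at 0.01 (-0.46 to 0.49). Cox4i1 was at 0.35 (-0.08 to 0.79) and Cox7b at -0.35 (-0.82 to 0.12), Atp5a1 at -0.35 (-0.75 to 0.06), Atp5c1 at 0.21 (-0.31 to 0.74) and Atp5e at 0.56 (-0.07 to 1.19). Several of these intervals reflect KO replicates that disagreed with each other. Ndufs8, a core iron-sulfur subunit, was at 45.28, 17.33, 17.09 and 42.76 CPM in KO replicates 1 to 4, and Ndufa8 at 230.3, 103.5, 104.6 and 253.2 CPM. Sdhd showed the opposite order, at 89.81, 199.8, 170.0 and 112.5 CPM. Ndufs8 was picked for this spread after its values were seen. KO replicates 1 and 4 were high in Ndufs8 and Ndufa8 and low in Sdhd, and in all 3 genes the het replicates lay inside the range of KO, with Ndufs8 at 43.82 and 19.26 CPM. The summed granulosa and cumulus markers were at 417.8, 686.8, 677.3 and 409.1 CPM in the same KO replicates, and their part in these values was not tested.

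The difference between the lines' KO effects (Padi6 minus Tle6) was tested over all 12 replicates. It was called for 0 of 76 members in edgeR, against 4.32% of all 21392 genes tested (924 genes). At an unadjusted p under 0.05 there were 10 members, against 20.7% of all genes, while DESeq2 called 5, against 9.34% of all genes, and limma-voom 0, against 4.05%. The median difference was -0.07 over the members and -0.02 over all genes, and 0.13 over the members without library B, where 0 were called by edgeR against 1.79% of all genes. Ndufa4 came closest, with a log2 fold change of 0.21 in Padi6 KO and -0.65 in Tle6 KO. Its difference of 0.90 ± 0.24 had an adjusted p of 0.052, which was 0.315 without library B (difference 0.56) and 0.0383 without library A (1.14). It was also called on leaving out Padi6 KO replicate 1 or Tle6 KO replicate 1, and was 1.09 without Tle6 het replicate 1. With all libraries it was called by DESeq2 (0.89, adjusted p = 0.02). In edgeR it was called without the filter on low counts (0.88, adjusted p = 0.0226). The call thus turned on single replicates or libraries and on the processing. Sdhc followed with 0.66 ± 0.20 (adjusted p = 0.0775), Ndufa2 with -0.79 (0.0922), Ndufa9 with -0.62 (0.109) and Uqcrc1 with -1.51 (0.109).

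The het groups of the lines, by contrast, differed in many subunit genes. These groups differ in strain, in the mutated gene and in any step of preparation, which cannot be told apart. Of 76 members 23 were called (30.3%), against 28.2% of all 19220 genes tested, so the share was near that of all genes. There were 16 members higher in Padi6 het, against 13% of all genes called higher, and 7 lower, against 15.2%. The median log2 ratio of Padi6 het to Tle6 het was 0.24 over the members and 0.03 over all genes. At an unadjusted p under 0.05 there were 35 members, against 41.3% of all genes. The replicates did not overlap in 33 members that were higher and 14 that were lower, against 28.6% and 27.6% of all genes. Without library B these counts were 18 and 13, against 25.1% and 21% of all genes. In that setting 6 members were called (7.89%), against 12.2% of all genes, with a median of -0.16. Uqcrh, Uqcr11 and Ndufv1 were then called higher, against 6.12% of all genes, and Ndufs5, Ndufa4 and Cox7c lower, against 6.11%. Without library A instead, 19 members were called, against 4833 of all 19177 genes, with a median of 0.47. Of these 19 members 13 were higher and 6 lower, against 2028 and 2805 of all genes.

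Ndufs5 showed the difference that held under every alternative run. This accessory subunit, which lies on the intermembrane space side of complex I, was at 7.397, 5.169 and 5.305 CPM in Padi6 het and 17.65 and 19.92 CPM in Tle6 het. It was at 5.150 to 6.728 CPM in the 3 Padi6 KO replicates and at 16.58 to 26.46 CPM in the 4 Tle6 KO replicates, so every replicate of the Tle6 line was above every replicate of the Padi6 line. The log2 ratio was -1.65 ± 0.24 (adjusted p = 0.00239), -1.57 without library B, and called in 16 of 16 alternatives. Uqcrh was the other member called in 16 of 16, at 381.5, 395.9 and 349.4 CPM in Padi6 het and 218.1 and 167.4 CPM in Tle6 het (0.97 ± 0.17, adjusted p = 0.00558, and 0.77 without library B). Uqcrh in the Tle6 KO replicates ranged from 196.7 to 352.7 CPM.

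Complex III held the largest median of the 5 complexes in this comparison, 0.84, with 8 of 9 genes above 0 and 4 called. Uqcr11, a small subunit, was at 55.98, 43.5 and 48.29 CPM in Padi6 het and 23.92 and 16.36 CPM in Tle6 het, with a log2 ratio of 1.30 ± 0.22 (adjusted p = 0.00502). Uqcrc1 (1.90) and Cyc1 (0.95) were also called, with adjusted p-values of 0.0184 and 0.0224. Without library B the median of the complex was 0.64 and Uqcrc1 and Cyc1 were not called, at 1.48 and 0.64.

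In complex I 7 genes were higher and 4 lower in Padi6 het. Among the higher were Ndufb10 (1.05), Ndufv3 (1.04), Ndufc2 (0.87), Ndufa13 (0.85), Ndufv1 (0.83) and Ndufa9 (0.58). The lower were Ndufs5, Ndufa4 (-1.19), Ndufs3 (-0.78) and Ndufb11 (-0.77). Ndufa4 was at 116.3, 141.9 and 122.5 CPM in Padi6 het and 254.3 and 327.7 CPM in Tle6 het, with an adjusted p of 0.00257. In complex II Sdhd (0.47) was higher and Sdha (-0.58) lower. In complex IV Cox6b1 (0.66) and Cox4i1 (0.57) were higher and Cox7c (-0.92) lower. In complex V Atp5d (1.60) and Atp5g1 (1.02) were higher and Atp5a1 (-0.44) lower. With both libraries the called genes thus went in both directions in complexes I, II, IV and V. Without library B complexes II and V had 0 called genes in edgeR (2 and 2 at an unadjusted p under 0.05) and complex IV 1. Several values were then smaller, such as Sdhd 0.09, Cox4i1 0.24 and Ndufv3 0.53. Cox7c (-1.28) and Sdha (-0.72) moved further from 0.

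Base composition of the transcripts moved with these differences. Spearman's rho of the log2 ratio with transcript GC content was 0.50 over the 76 members and 0.31 over 14124 protein-coding genes, given as a description because all genes share the same libraries. Members with a GC content in the lowest quartile of all genes (up to 45.1%) had a median log2 ratio of -0.10 (11 genes) and those in the highest quartile (above 54.4%) 0.67 (24 genes), against -0.29 and 0.51 over all genes. The 16 members called higher had a median GC content of 55.6% and the 7 called lower 49.0%. The technical libraries of Tle6 het replicate 2 differed along the same sides. A was above B in 16 of the 16 members called higher, with a median log2 ratio of 1.19. The same held in 2 of the 7 called lower (median -0.61) and in 48 of the 53 not called (0.83). Both libraries are part of the Tle6 het sum, so this relation is in part built in and gives no separate evidence. Over the members the rho of this gap with GC content was 0.24. It was 0.45 for the libraries of Tle6 het replicate 1 and 0.48 for those of KO replicate 4. With a smooth trend on GC content taken out, a step chosen after seeing the data, 23 members were again called, 12 higher and 11 lower, of which 17 were among the first 23. Over all genes 27.2% were then called, 11.6% higher and 15.6% lower. With library B left out as well, 5 members were called, 4 of them among the first 23, against 1908 of all 18475 genes tested. The part of GC content and of library B as causes of the calls was not tested.

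The coding sequences of 2 called genes that stand far apart in composition are printed with each G and C in capitals. Uqcr11, higher in Padi6 het, holds 103 G or C among 171 bases (60.2%), and Ndufa4, lower in Padi6 het, holds 120 among 249 (48.2%). Other called genes were closer, with 53.3% in Cox6b1 (higher) and 49.5% in Cox7c (lower). Over whole transcripts the GC content of the sides overlapped, at 46.8 to 60.4% for the higher and 44.1 to 53.8% for the lower. The sequences are those of the GENCODE M21 transcripts, read 5′ to 3′.
Uqcr11: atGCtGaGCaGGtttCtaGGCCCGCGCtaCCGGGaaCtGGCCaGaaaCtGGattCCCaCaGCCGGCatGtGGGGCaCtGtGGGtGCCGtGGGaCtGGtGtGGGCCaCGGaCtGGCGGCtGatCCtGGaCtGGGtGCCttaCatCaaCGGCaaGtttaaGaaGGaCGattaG
Ndufa4: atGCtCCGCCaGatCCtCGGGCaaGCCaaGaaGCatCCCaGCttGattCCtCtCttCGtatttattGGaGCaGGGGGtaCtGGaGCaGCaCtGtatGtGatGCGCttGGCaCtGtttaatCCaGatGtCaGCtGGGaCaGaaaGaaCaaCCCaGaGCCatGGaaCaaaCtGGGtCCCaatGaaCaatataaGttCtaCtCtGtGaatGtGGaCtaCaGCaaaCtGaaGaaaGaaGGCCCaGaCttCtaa

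**Figure D5:**
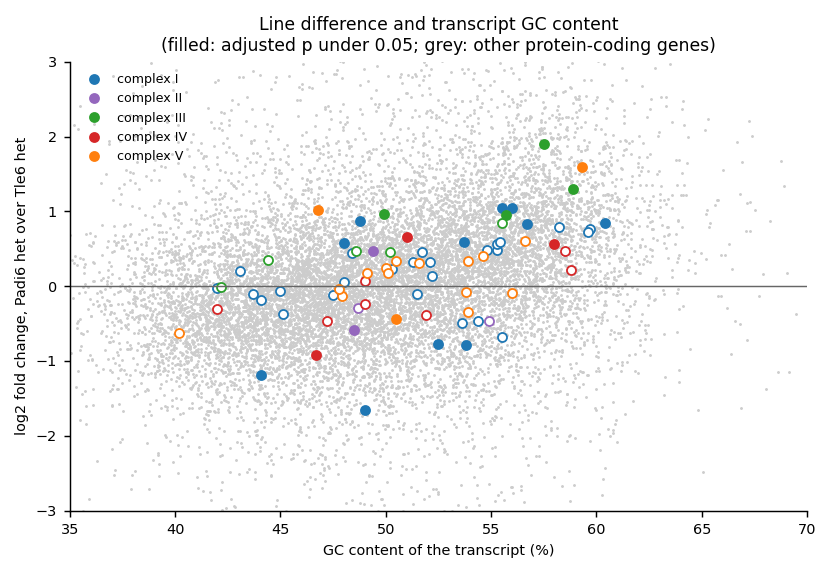
log2 ratio of Padi6 het to Tle6 het (y axis) against GC content of the transcript (x axis, %) for the 76 measured subunit genes, coloured by complex, and for other protein-coding genes in grey (those outside the axes are not drawn); filled symbols have an adjusted p under 0.05. Ratios were higher at high GC content in both sets, with medians of 0.67 for members and 0.51 for all genes in the highest quartile of GC content.

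Promoter sequence was not used in the choice by symbol. Nuclear respiratory factor 1 (NRF1) and GABPA (also called NRF2) are textbook regulators of this gene set. RefSeq windows (GRCm38.p6) from 250 bases before to 50 bases after the start were at hand for 61 of 76 symbols, and were searched on both strands for the core motif of each factor. The ETS core CCGGAAG bound by GABPA was found for 16 of 61 members (26.2%), against 9.9% of all 27025 genes with a window and 13.4% of protein-coding ones. The NRF1 core, an exact match with 1 free base in its middle, was found for 17 (27.9%), against 5.2% and 7.4%. The core of YY1, also a known regulator, was found for 5 (8.2%), against 1.0% and 1.5%. Members with the ETS core had a median level of 32.23 RPKM and those without it 21.83, while members with the NRF1 core had 17.34 and those without it 23.45. The 5 members with the YY1 core had a median of 8.836 RPKM and the 56 without it 22.81. A match describes the letters in the window and not a bound site.

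Of the members with a single window that holds more than 1 of the motifs searched, Sdhd and Atp5h have the highest levels, and in both the cores are those of NRF1 and ETS. Their stretches are printed on the strand of the gene with the cores in capitals, the ETS core here reading CTTCCGG, the reverse complement of the form above. The ETS core ends 40 bases before the start of Sdhd and 32 bases before that of Atp5h. The stretches lie at chr9:50603864-50603953 (minus strand) for Sdhd and chr11:115419926-115420085 (minus strand) for Atp5h, in GRCm38.p6.
Sdhd: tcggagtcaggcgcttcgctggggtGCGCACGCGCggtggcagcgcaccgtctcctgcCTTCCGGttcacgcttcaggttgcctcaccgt
Atp5h: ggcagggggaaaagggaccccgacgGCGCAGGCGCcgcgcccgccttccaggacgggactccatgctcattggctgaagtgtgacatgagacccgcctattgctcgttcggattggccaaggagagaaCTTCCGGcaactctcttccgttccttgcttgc

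Genes that work beside these subunits were counted from lists of known roles. Of the 16 regulators of mitochondrial gene expression, which include Nrf1, Gabpa, Yy1 and the mitochondrial RNA polymerase Polrmt, 15 were tested. In edgeR 0 were called in Padi6 KO (6 at an unadjusted p under 0.05, 2 called by DESeq2, 0 by limma-voom) and 0 in Tle6 KO (4, 1 and 0). Over all genes, 18.6% in Padi6 KO and 19% in Tle6 KO had an unadjusted p under 0.05. Of all genes edgeR called 2.41% and 1.62%, DESeq2 7.18% and 8.45%, and limma-voom 2.02% and 1.75%. The difference between the KO effects was called in edgeR for Polrmt alone of the 15, against 4.32% of all genes. It was -1.33 with an adjusted p of 0.0437, and -0.87 with an adjusted p of 0.261 without library B. It was called in 8 of 24 alternatives, with values from -1.78 to -0.55, and lost on leaving out 10 of the 12 replicates. Of 45 assembly factors 40 were tested, with 0 called in Padi6 KO (4 unadjusted, 0 by DESeq2 and 0 by limma-voom) and 1 lower in Tle6 KO. That gene was Cox18, which inserts a subunit of complex IV into the inner membrane, at 57.56 and 59.24 CPM in het and 29.91, 32.68, 25.66 and 30.96 CPM in KO (log2 fold change -0.93 ± 0.18, adjusted p = 0.0425). The call was lost on leaving out any of the 6 replicates, while the value stayed between -1.16 and -0.77 over all 19 alternatives. Without library B it was -1.10 with an adjusted p of 0.0611.

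The citric acid cycle and pyruvate entry list (19 genes) had 0 calls in either KO in edgeR, with 1 gene at an unadjusted p under 0.05 in each line, and DESeq2 called 0 in Padi6 KO and 1 in Tle6 KO. The inner membrane and import list (17 genes) also had 0 calls in edgeR, with 1 and 3 genes at an unadjusted p under 0.05, and DESeq2 called 1 in each line. limma-voom called 0 genes of both lists. Over all genes, 18.6% in Padi6 KO and 19% in Tle6 KO had an unadjusted p under 0.05. Of all genes edgeR called 2.41% and 1.62%, DESeq2 7.18% and 8.45%, and limma-voom 2.02% and 1.75%. Between the het groups, where 28.2% of all genes were called, 10 of 40 assembly factors were called (5 higher and 5 lower in Padi6 het), 4 of 15 regulators (3 and 1), 4 of 19 citric acid cycle genes (2 and 2) and 3 of 17 inner membrane genes (1 and 2). Without library B, where 12.2% of all genes were called, these became 1 higher and 2 lower, 0 and 0, 1 and 1, and 0 and 1.

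The clearest difference near the set was an isoform that the symbol rule leaves out. Cox8c, known as a testis form of the complex IV subunit whose common form is Cox8a, was at 2.365, 1.735 and 2.374 CPM in Padi6 het and 6.444, 5.342 and 6.682 CPM in Padi6 KO. The KO replicates were all above the het replicates, with 92 to 149 counts in het and 314 to 484 in KO. The log2 fold change was 1.51 ± 0.21 (adjusted p = 0.00944), called in 14 of 14 alternatives. In Tle6 het Cox8c was at 4.459 and 3.335 CPM and in Tle6 KO at 2.236 to 3.318 CPM, and the difference between the KO effects was 2.01 (adjusted p = 0.00647, called in 23 of 23 alternatives, 2.04 without library B). Cox8a itself was at 12.23 ± 1.39 CPM in Padi6 het (n = 3), and at 13.05, 12.23 and 14.13 CPM in Padi6 KO. Of the 13 isoforms and subunits outside the rule, 10 were tested in the Padi6 line and Cox8c was the 1 called by edgeR, against 2.41% of all genes. DESeq2 called 2, against 7.18% of all genes.

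Among the 13 subunits encoded in the mitochondrion, 11 were tested in the Padi6 line and 9 of them had values below 0, with a median log2 fold change of -0.43. The complex I subunit mt-Nd1 was called lower in Padi6 KO, at 225.9, 233.2 and 232.0 CPM in het and 175.5, 167.1 and 157.7 CPM in KO (-0.47 ± 0.09, adjusted p = 0.0283). The call was lost on leaving out 5 of the 6 replicates in turn, while the value stayed between -0.55 and -0.43 over all 15 alternatives. At an unadjusted p under 0.05 there were 6 of the 11, against 18.6% of all genes. edgeR called 1, against 2.41% of all genes, DESeq2 5, against 7.18%, and limma-voom 1, against 2.02%. The summed level of the 13 was 1073 to 1095 CPM in Padi6 het and 763.8 to 901.7 CPM in Padi6 KO, without overlap, while the nuclear-encoded members had a median of -0.01. Other sums also differed between these groups: the oocyte markers were at 25490 to 25830 CPM in het and 27540 to 28250 CPM in KO, without overlap. The 16 granulosa and cumulus markers tested had a median log2 fold change of -0.46, with 3 above 0. They did not all fall: edgeR called 1 of the 16, Has2, which was higher in Padi6 KO, and 0 lower. The granulosa and cumulus markers summed to 623.0 to 740.1 CPM in het and 627.7 to 692.2 CPM in KO. Their part in the result was not tested. In the Tle6 line the sum of the 13 mitochondrial genes was 590.2 and 1054 CPM in het and 688.3 to 1020 CPM in KO. Of the 12 tested 0 were called by edgeR, DESeq2 or limma-voom, against 1.62%, 8.45% and 1.75% of all genes. At an unadjusted p under 0.05 there were 0, against 19% of all genes.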

How the data were processed

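RNA was measured by RNA-seq of polyA RNA (QIAseq FX chemistry for single cells, per the labels' protocols) in 15 libraries of 12 biological replicates. The authors deposited raw read counts per gene. The submitters' processing notes name bcl2fastq 2.20.0.422, cutadapt 2.8, STAR 2.7.8a, HTSeq 2.0.2 and the mm39 genome; for the annotation release and the strand setting, the value is not given in the sources that were used. Rows of HTSeq that name no gene (no feature 5.39 to 7.29%, ambiguous 3.85 to 4.2%, aligned more than once 12.09 to 14.51% of reads) and 92 spike-in rows were left out.

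Technical libraries were added. Counts were tested with edgeR 4.0.16 (TMM, filterByExpr, quasi-likelihood F test, Benjamini-Hochberg over all genes tested, threshold 0.05) in R 4.3.3, each KO within its line, the difference of KO effects over all 12 replicates, and the het groups against each other. DESeq2 1.42.0, limma-voom (limma 3.58.1), other scalings and filters, left-out replicates and libraries and a replicate block were alternatives. Corrections for GC content, and the complex sums, overlap counts and list counts without library B, were added after seeing the data. The script was tested on simulated counts.

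Names, lengths and GC content came from GENCODE M21 (GRCm38), and promoter windows from RefSeq. GENCODE M21 matched 52147 of 53700 identifiers. No coordinate was carried between builds. Members and gene lists were chosen with earlier results of these data known. The text names each called member but 1, which is not reported here, the 2 members per complex with the smallest p, the 2 with the highest RPKM and called list genes; others are named where a value needed an example. The labels call replicates biological without naming animals. Same-numbered het and KO replicates were not treated as pairs in the main tests.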

Additional observations from a re-analysis of the deposited data

Results flagged for a closer look

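Among the 4 Tle6 KO replicates, 3 of the subunit genes had 1 replicate far from the others, with a gap to its nearest neighbour above Dixon's 95% critical value as a share of the group's range. Cox4i1 was at 402.9 CPM in replicate 4, against 299.6, 303.3 and 317.1 CPM in the others. Cox7b was at 39.98 CPM in replicate 3, against 49.89, 50.49 and 51.38 CPM. Ndufa9 was at 88.48 CPM in replicate 3, against 68.48, 69.76 and 71.75 CPM. These were found among 40 groups of values examined, and chance alone marks about 1 in 20 groups.

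Counts outside the comparisons gave a signal as well. Spike-in counts reached 13772 in the Padi6 line, where 1 het library (replicate 3) held 40, and at most 45 in the Tle6 line. They were not used to scale any value. The processed pseudogene Uqcrh-ps2 held 4621 counts over all libraries.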

How the results depend on the processing

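In Padi6 KO the count of called subunit genes, 0, became 1 with DESeq2 (Ndufa13) and 2 without a filter on low counts (Ndufa13 and Uqcr10). In Tle6 KO it became 3 with DESeq2, 1 without the filter and 3 with the spread shared by both lines. For the difference of KO effects it became 5 with DESeq2, 3 without the filter, 2 with total counts as scaling and 1 without library A of Tle6 het replicate 2. Leaving out 1 replicate at a time gave 0 to 0 calls in either KO and 0 to 3 for the difference. Between the het groups the count of 23 became 6 without library B, 6 with library A alone wherever A and B exist, 5 without B and with GC content taken out, and 37 with total counts (34 higher and 3 lower), and ranged from 9 (without Padi6 het replicate 3) to 32 (without Tle6 het replicate 1) on leaving out 1 replicate. Over all genes the 5415 calls became 2260, 2174, 1908 and 6034 in those settings, and 2797 to 6756 on leaving out 1 replicate.

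The members' median log2 change in Tle6 KO, 0.19, became -0.10 without library B, -0.10 with library A alone, -0.13 without B and with GC content taken out, 0.30 without library A and 0.35 with total counts. For the difference of KO effects, -0.07, the same settings gave 0.13, 0.14, 0.18, -0.22 and -0.29, and for the het groups, 0.24, they gave -0.16, -0.15, -0.16, 0.47 and 0.54. Leaving out 1 replicate gave 0.10 to 0.35 for the het groups. Scaling by total counts moved the median of all genes to 0.22, -0.25 and 0.34. Cox4i1 between the het groups turned from 0.57 to -0.0013 with GC content taken out and to -0.18 with B dropped as well. Apart from the rescaling of all genes under total counts, the cause was not tested.

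A replicate block by number was tried, although the labels do not say whether same-numbered samples are pairs. Deviations of same-numbered het and KO replicates correlated at 0.266, 0.062 and 0.135 in the Padi6 line and 0.098 and 0.213 in the Tle6 line. Those of replicates with different numbers ran from -0.241 to 0.143 in the Padi6 line and from -0.3 to 0.3 in the Tle6 line. The deviations of the 2 Tle6 het replicates mirror each other, so each KO replicate of that line gives the same value with both signs. Het replicate 1 correlated above 0 with KO replicates 1 (0.098) and 4 (0.3). For het replicate 2 that held with KO replicates 2 (0.213) and 3 (0.177). Whether the samples are paired was not tested. With the block 0 members were called in Padi6 KO, in Tle6 KO and for the difference, while the calls over all genes went from 440 to 859, from 329 to 57 and from 924 to 400. With 2 Tle6 het replicates, of which 1 has discordant libraries, changes under 2-fold could be bounded for 47 of 76 members in Tle6 KO.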
